A study of Mus musculus with 42 samples.

Results

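The prefrontal cortex of miR-142 null mice was compared with that of wild-type mice across all genes measured. The comparison rests on 8 of the 42 libraries of the study, taken as the 4 libraries with KO and the 4 with WT in the names of their columns. The study as a whole concerned oligodendrocyte genes and tauopathy, and its title names miR-142-3p as a regulator. The null libraries carry the genotype miR-142-null. The wild-type libraries carry the genotype "miR-142" and the letters WT in their titles. A further 4 libraries from heterozygous mice of the same table entered the fit, so that 12 libraries gave the estimate of spread. All were total RNA from freshly dissected prefrontal cortex, depleted of ribosomal RNA. The labels do not give the strain, the age, the way the null allele was made, or whether each library came from its own animal, so the p-values measure only the spread between these libraries. Levels are in RPKM, reads scaled to coding length and library size. Of 20661 genes in the table, 13879 had at least 0.5 RPKM in at least 4 of the 12 libraries and were tested.

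MicroRNAs are short RNAs that guide a silencing complex to messenger RNAs, mostly through pairing of bases 2 to 8 of the microRNA, the seed, with the 3' untranslated region (UTR) of the target. miR-142 is made mainly in cells of the blood lineage, and in the brain it is known from microglia, the resident macrophages. Loss of a microRNA is expected to raise its direct targets in the cells that make it, and other transcripts can follow in either direction. Both arms of the hairpin give a mature microRNA, and the strands missing in the null are shown here with the seed in capitals, as RefSeq gives them.

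miR-142a-3p: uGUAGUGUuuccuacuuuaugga
miR-142a-5p: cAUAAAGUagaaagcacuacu

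The hairpin of both lies on the plus strand at chr11:87756864-87756927 of the GRCm38.p6 build. An 8mer site, the perfect match to the seed followed by an A, reads ACACTACA for miR-142a-3p and ACTTTATA for miR-142a-5p. Mir142 itself has no row in the table, so the deletion could not be checked in these libraries.

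Differences between the libraries other than genotype are given first, because every result below rests on them. Depth was 25.1 to 28.3 M reads in the null, 25.4 to 31.8 in the heterozygous and 22.8 to 26.5 in the wild-type libraries. Each title holds a letter and a number that the labels do not explain: F14, M14, M14 and M14 in null replicates 1 to 4, M14, M14, M14 and F13 in the heterozygous, and F13, F13, M15 and M15 in the wild type. The letter went with Y-linked transcripts, since Ddx3y stood at 50.4 to 63.1 RPKM in every M library and at 0.0797 or less in every F library. The number did not overlap between null and wild type, and only the heterozygous libraries, 3 with 14 and 1 with 13, link the numbers. Genes known from olfactory bulb neurons also split the libraries, within each genotype but unevenly between genotypes. Doc2g stood at 40.7, 2.0, 58 and 28.9 RPKM in null replicates 1 to 4, at 11.1, 2.23, 49.7 and 3.02 in the heterozygous and at 3.93, 3.25, 2.31 and 54.1 in the wild type, and Eomes, Cdhr1 and Th followed the same order of high and low libraries. Thus 3 of 4 null libraries and 1 of 4 wild-type libraries were high, and the first principal component, with 36.9% of the variance, placed the same 5 libraries at its upper end. Alternatives that take up the title number, the olfactory genes, or coding length and GC content are given beside the results. No pair of libraries agreed within sampling noise.

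In limma's moderated test 65 of 13879 genes passed at an adjusted p under 0.05 (0.468%), 29 of them higher in the null (0.209%) and 36 lower (0.259%). All 65 stood between an adjusted p of 0.0493 and 0.0495, so the calls sat together at the threshold. The changes were small. Fold changes on the log2(RPKM + 0.5) scale ran from -1.0 to 1.11 with a median size of 0.43, and 62 of 65 were under 1. In all 65 genes the 4 null libraries lay entirely on one side of the 4 wild-type libraries, a property shared by 892 tested genes on the higher side (6.43%) and 928 on the lower side (6.69%). At an unadjusted p under 0.05 stood 3134 genes (22.6%). The calls did not outlast the left-out libraries. Between 0 and 662 genes passed when 1 library was left out, with 0 without null replicate 1 or 3 or wild-type replicate 3 or 4, 3 without null replicate 4, 1 without wild-type replicate 2, 645 without null replicate 2 and 662 without wild-type replicate 1. Because some of these fits gave 0 calls, no gene could be called in all 8 of them.

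With the title number as a term, which the heterozygous libraries allow, 0 genes passed in limma and 243 had an unadjusted p under 0.05. The 65 genes then kept 0.39 of their fold change in the median, 63 kept its direction and 11 had an unadjusted p under 0.05. In 56 of the 65 the 3 heterozygous libraries with number 14 had a mean nearer to the null, and in 53 the heterozygous library with number 13 was nearer to the wild type. Number 15 occurs only in wild-type replicates 3 and 4, so its term takes up these libraries. The wild-type side of that contrast then rests on replicates 1 and 2, and its link to number 14 on the 1 heterozygous library with number 13. Genotype and title number cannot be told apart for the genes whose fold change moved with the term. For genes whose fold change moved little, this fit does not separate them firmly either. With the olfactory genes as a term 0 genes passed in limma and 2731 had an unadjusted p under 0.05, but all 65 kept their direction, all 65 had an unadjusted p under 0.05, and the median ratio to the fold change without the term was 0.93. Heterozygous against wild type gave 0 calls in limma (1008 genes, 7.26%, at an unadjusted p under 0.05), as did null against heterozygous (456 genes, 3.29%). With quantile scaling 27 genes were called higher and 55 lower, so the split between directions moved with the scaling.

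Endothelial genes stood lower in the null than in the wild type. All 18 of 18 listed genes of blood vessel lining cells stood below 0 in the null, 12 of 18 with no overlap between groups (against 6.69% of all tested genes), and their median log2 fold change was -0.44 against 0.01 over all tested genes. Of the 18, 2 passed the test, both lower (against 0.259% of all tested genes). Flt1, a receptor for vascular endothelial growth factor, stood at 7.02, 10.5, 7.39 and 6.96 RPKM in the null and at 13.2, 11.4, 14.2 and 15.3 in the wild type. It fell by 0.74 on the log2 scale (SE 0.15, limma adjusted p = 0.0493). Eng, a co-receptor of the transforming growth factor beta family, stood at 2.24, 3.46, 2.74 and 2.89 RPKM in the null and at 4.71, 4.26, 4.96 and 5.62 in the wild type, and fell by 0.70 (SE 0.13, adjusted p = 0.0493). For both genes the highest null library was replicate 2, and it still lay below every wild-type library.

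The other endothelial genes did not pass but stood on the same side. Slco1c1, a thyroid hormone transporter of the blood-brain barrier, was at 22.3 to 26.8 RPKM in the null and 27.3 to 37.9 in the wild type (log2 fold change -0.42 ± 0.10 SE, adjusted p = 0.0532). Ly6c1, which could share reads with its close relative Ly6c2, was at 26.5 to 31.2 RPKM against 34.5 to 37.3 (-0.34 ± 0.08, adjusted p = 0.0521). Slc2a1, the glucose transporter of brain vessels, was at 21 to 28.7 RPKM against 30.3 to 39.4 (-0.54 ± 0.14, adjusted p = 0.0658). Pecam1, Cdh5, Tek, Tie1, Kdr, Esam and Abcb1a also had groups that did not overlap. Bsg, which neurons and other cells also make, overlapped at 177 to 197 RPKM in the null and 176 to 202 in the wild type. Cldn5, the main tight junction protein of brain endothelium, overlapped between groups, at 25.1, 34.2, 28.9 and 22.8 RPKM in the null and 39.1, 27.4, 45.5 and 42.7 in the wild type.

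The summed level of the endothelial list was 390 to 440 RPKM in the null, 423 to 489 in the 3 heterozygous libraries with number 14, 474 in the one with 13, and 462 to 509 in the wild type. The median stood at -0.43 against only the wild-type libraries with number 13 and at -0.42 against only those with number 15. It was -0.37 with the olfactory genes as a term, -0.27 without the 5 libraries high in them, -0.41 with length and GC trends removed, and -0.18 with the title number as a term. In whole tissue, fewer cells of a type and less RNA per cell cannot be told apart.

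**Figure D1:**
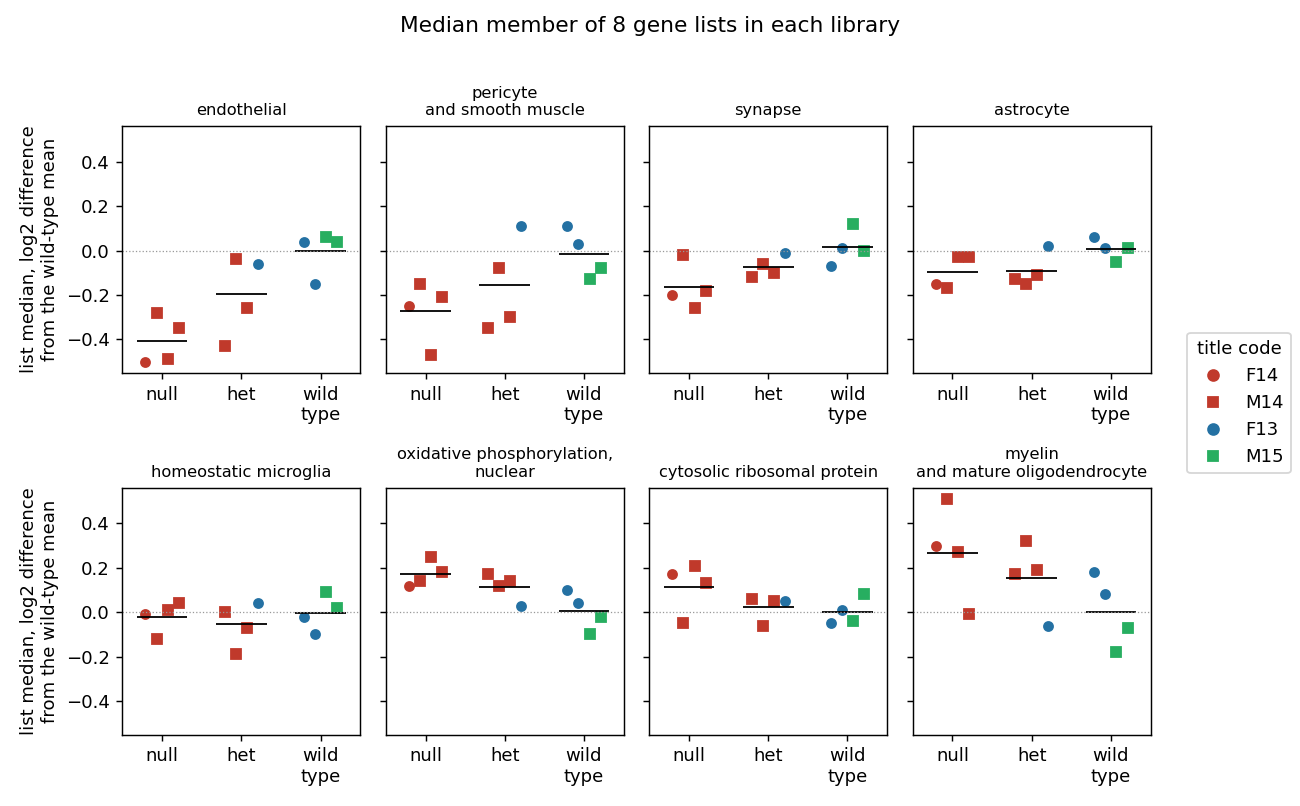
Each point is 1 library, placed by genotype on the horizontal axis and marked by its title code. The vertical axis is the median over a list's genes of the log2 difference from the wild-type mean, and black lines are group means. For the endothelial list the null libraries stood at -0.50, -0.28, -0.49 and -0.35 and the wild-type libraries between -0.15 and 0.06, while the homeostatic microglia list was between -0.12 and 0.09 in both groups.

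Robo4 and Epas1 lay outside the list and were called. Robo4, a guidance receptor of endothelium, stood at 0.755, 1.12, 0.936 and 0.980 RPKM in the null and at 2.13, 1.84, 1.90 and 1.92 in the wild type, and fell by 0.76 (SE 0.13). Epas1, the hypoxia-inducible factor 2 alpha of endothelium and astrocytes, was at 20.2, 20.1, 19.2 and 18.5 RPKM against 26.3, 27, 28.8 and 27.5 and fell by 0.48 (SE 0.07). Both were separated cleanly between null and wild type. The heterozygous libraries with number 14 held Epas1 at 18.3 to 19.4 RPKM, at the null level, and the one with number 13 at 22.6. Genes of pericytes and smooth muscle, the cells around the vessels, leaned the same way with 13 of 14 below 0 and a median of -0.29, but none passed and the median was 0.03 with the title number as a term. Rgs5, a pericyte marker, was at 58.9 to 76.6 RPKM in the null and 83.3 to 98.1 in the wild type (-0.46 ± 0.10, adjusted p = 0.0514).

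**Figure D2:**
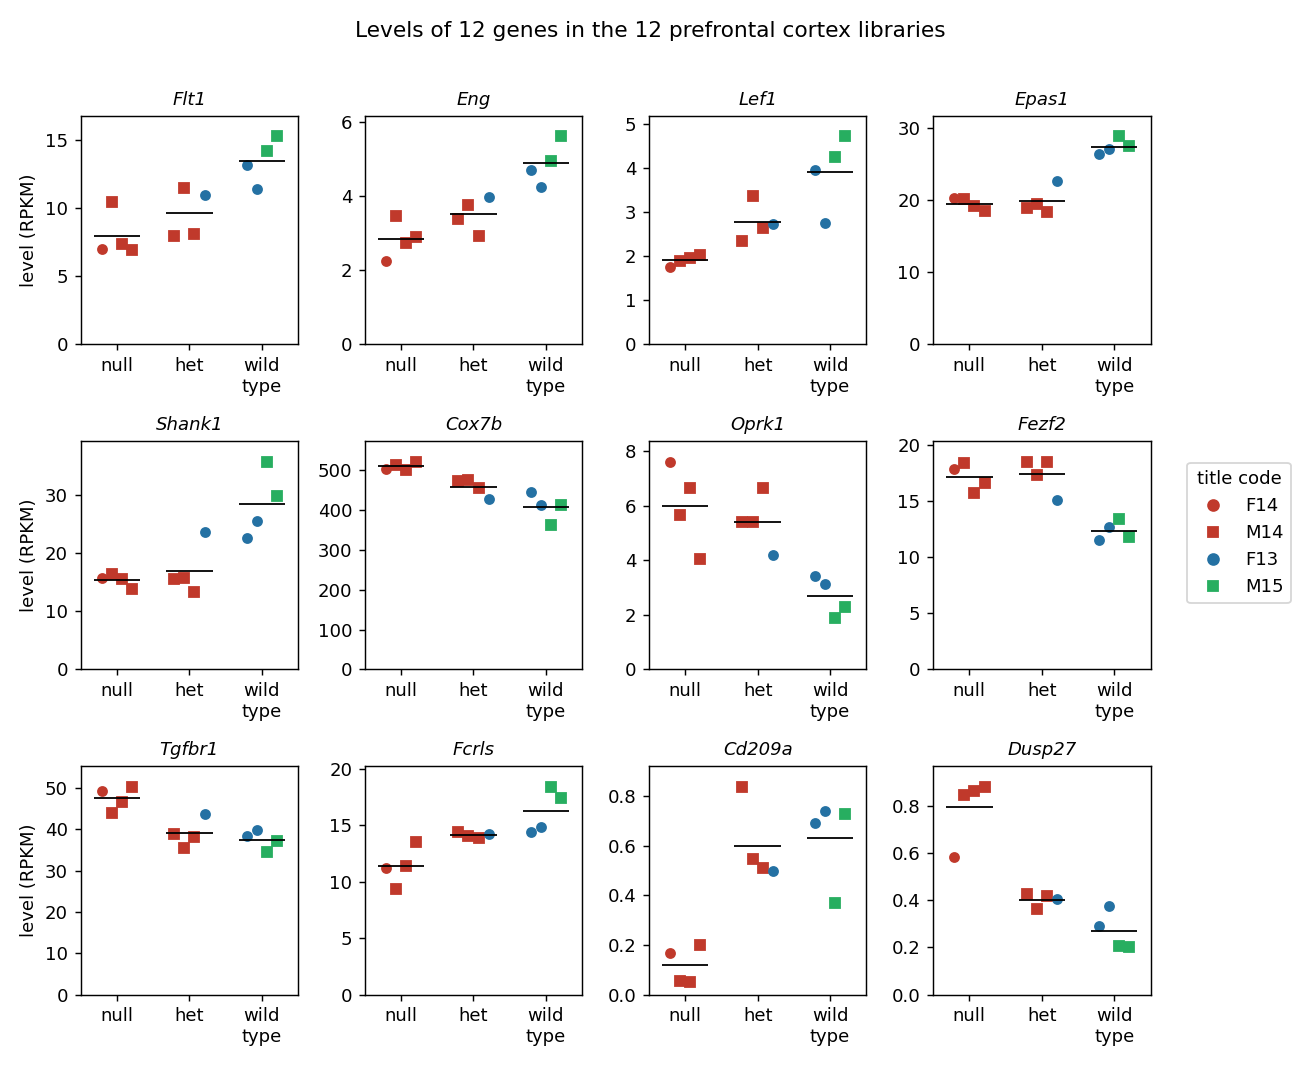
Level in RPKM (vertical axis, from 0) of 12 genes in each of the 12 libraries, by genotype and with the title code as marker. Black lines are group means. Shank1, Epas1 and Fezf2 in the heterozygous libraries with number 14 were at the null level, whereas Cd209a, Dusp27 and Tgfbr1 in the same libraries were nearer to the wild type.

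Lef1, a nuclear factor of Wnt signalling, was among the called genes with the largest falls. It stood at 1.75, 1.88, 1.96 and 2.02 RPKM in the null and at 3.96, 2.75, 4.26 and 4.72 in the wild type, and fell by 0.86 (SE 0.14). Nkd1, a feedback inhibitor of Wnt signalling, stood at 5.41 to 6.31 RPKM against 8.09 to 10.5 and fell by 0.66 (SE 0.12). Daam2, a formin-like protein that acts with Dishevelled, stood at 10.6 to 11.9 RPKM against 14.9 to 17.1 and fell by 0.43 (SE 0.07). These genes did not all behave alike once the title number was a term, with Lef1 at -0.67 and Daam2 at -0.33 but Nkd1 at -0.01. Tle4, a co-repressor, was higher in the null at 35.0, 33.3, 31.8 and 24.0 RPKM against 21.8, 19.7, 20 and 21.6. These genes were named by the rule on fold change and p-value and not as a list, so no count over a pathway is given. Lef1 also marks thalamic neurons and endothelium, and it was the only called gene among 17 tested markers of thalamic, septal, hypothalamic and olfactory neurons. The median of that list was 0.19, but -0.11 with the olfactory genes as a term and -0.32 without the 5 libraries high in them.

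Neuronal genes were called in both directions. Among 24 synapse genes 2 passed, both lower (against 0.259% of all tested genes), 18 stood below 0 and the median was -0.18. That median was -0.04 with the title number as a term, -0.02 without the 5 libraries high in olfactory genes and -0.11 with length and GC trends removed. Shank1, a scaffold of the postsynaptic density, stood at 15.8, 16.5, 15.6 and 13.9 RPKM in the null and at 22.7, 25.6, 35.8 and 29.8 in the wild type, and fell by 0.84 (SE 0.16). Dlg4, which encodes the scaffold PSD-95, was at 159 to 175 RPKM against 196 to 234 and fell by 0.36 (SE 0.07). Shank1 in the heterozygous libraries stood at 15.5, 15.7 and 13.3 RPKM with number 14 and at 23.6 with number 13, and its fold change with the title number as a term was 0.02. Shank3, a related scaffold that did not pass, stood on the same side at 14.7 to 19.9 RPKM in the null and 23.3 to 31.2 in the wild type. The synapse genes are long, with a median coding length of 2890 bases, which bears on the length relation given further on.

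Of 18 markers of forebrain excitatory neurons 1 rose and 1 fell (against 0.209% and 0.259% of all tested genes), and the median was -0.09, or 0.15 without the 5 libraries high in olfactory genes. Fezf2, a determinant of deep-layer projection neurons, stood at 17.8, 18.4, 15.7 and 16.6 RPKM in the null and at 11.5, 12.7, 13.4 and 11.8 in the wild type, and rose by 0.45 (SE 0.08). Cux2, an upper-layer marker, stood at 16.4, 20.4, 16.3 and 21.2 RPKM against 28.5, 27.1, 31.1 and 29.7 and fell by 0.64 (SE 0.13). Fezf2 and Cux2 thus stood on opposite sides, and Tle4, also known from deep-layer neurons, was on the side of Fezf2. Oprk1, the kappa opioid receptor, had one of the highest fold changes at 7.63, 5.67, 6.66 and 4.06 RPKM against 3.43, 3.14, 1.89 and 2.28 (1.03 ± 0.20). B3galt2, a glycosyltransferase, rose by 0.79 (SE 0.13), from 42.7 to 52.1 RPKM in the wild type to 68.2 to 103 in the null. Nxph2, a neurexin ligand, rose by 0.71 (SE 0.14), from 1.63 to 2.15 RPKM to 2.98 to 4.28. For these genes the fold change with the title number as a term was 0.23 for Fezf2, -0.11 for Cux2, 0.33 for Oprk1, 0.28 for B3galt2 and 0.51 for Nxph2.

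The remaining called genes lower in the null were varied in function. Lrrc10b had the largest fall at 1.0 (SE 0.20), with 1.18, 1.35, 2.53 and 1.86 RPKM in the null and 3.24, 3.83, 4.76 and 3.71 in the wild type. Parvb, an adaptor at integrin contacts, fell by 0.69 (SE 0.11). Mgat5b, a glycosyltransferase, fell by 0.63 (SE 0.10), and Neurl1a, a ubiquitin ligase of the synapse, by 0.62 (SE 0.11). Hmox1, the haem-degrading enzyme, stood at 3.42 to 3.81 RPKM against 4.84 to 6.35 and fell by 0.55 (SE 0.11). Furin, a protease that activates growth factors, fell by 0.53 (SE 0.10), and Crtc1, a coactivator of CREB, by 0.46 (SE 0.08). Mtss1l fell by 0.52 and Evc2 by 0.50.

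Genes of oxidative phosphorylation, the mitochondrial pathway that makes ATP, stood slightly higher in the null. All 21 of 21 listed nuclear genes were above 0 with a median of 0.18, and 7 of 21 had groups that did not overlap (against 6.43% of all tested genes). Of the listed genes 1 passed (against 0.209% of all tested genes called higher), Cox7b, a subunit of complex IV. It stood at 504, 514, 501 and 522 RPKM in the null, at 474, 476, 455 and 429 in the heterozygous and at 445, 414, 363 and 412 in the wild type (0.32 ± 0.06). Uqcrb, a subunit of complex III outside the list, rose by 0.39 (SE 0.07), from 201 to 217 RPKM to 258 to 298. Other called genes of the pathway outside the list, picked after their values were seen, included Ndufv2 (0.33) and Ndufa6 (0.30), of complex I. Of the ATP synthase they included Atp5f1 (0.33), Usmg5 (0.29) and 2010107E04Rik (Atp5mpl in RefSeq, 0.23). Mrpl42, of the mitochondrial ribosome, rose by 0.37, and Dnajc19, of the mitochondrial import machinery, by 0.35. All these genes outside the list were taken from the calls. Mitochondrial genes outside the list that were not called were not counted, so no rise of the pathway is read from them. Cytosolic ribosomal protein genes stood above 0 in 70 of 78 with a median of 0.11, and none passed. Removing length and GC trends took the oxidative phosphorylation median to 0.12 and the ribosomal median to 0.04. The title number as a term took the former to 0.02 and the latter to 0.18. With length and GC trends removed, Cox7b stood at 0.13 (limma unadjusted p = 0.0729), Uqcrb at 0.19 and Ndufv2 at 0.21. Ndufa6 and Atp5f1 then stood at 0.22, Mrpl42 at 0.24 and Dnajc19 at 0.23, but Usmg5 at 0.02 and 2010107E04Rik at -0.02.

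**Figure D3:**
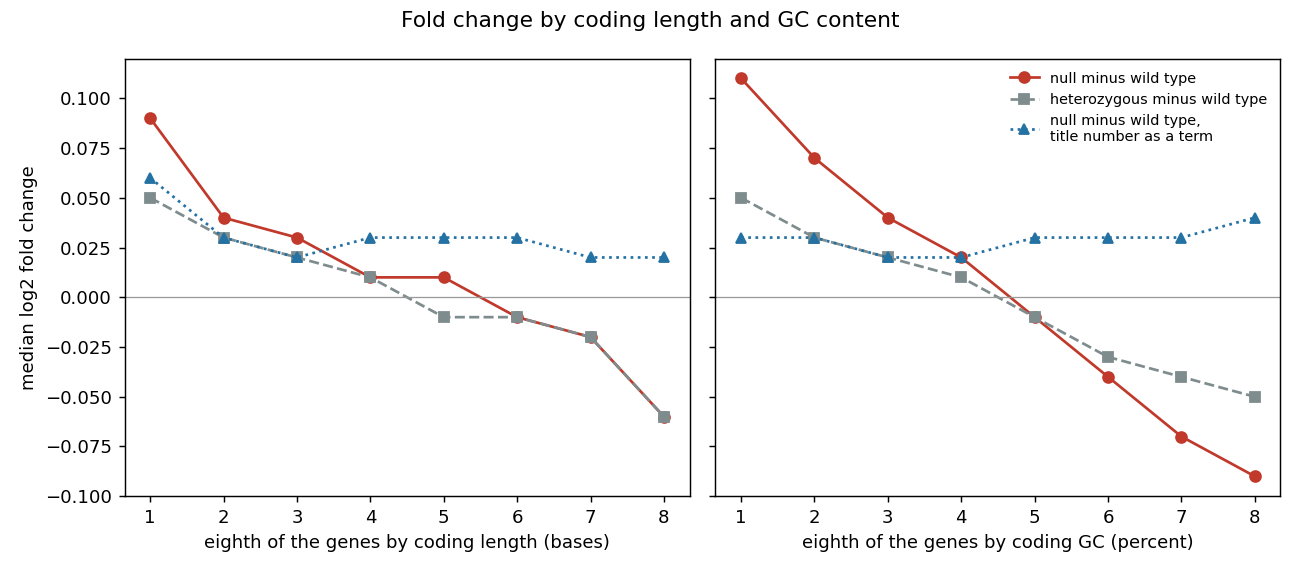
Median log2 fold change (vertical axis) in 8 equal bins of the tested genes by coding length (left) and by GC content of the coding sequence (right), each ordered from low to high. The null minus wild-type median ran from 0.09 in the shortest to -0.06 in the longest genes and from 0.11 at the lowest to -0.09 at the highest GC, and across GC it stayed between 0.02 and 0.04 with the title number as a term.

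The fold change moved with the make-up of the transcripts. Called genes higher in the null had a median coding length of 672 bases and a median GC content of 49.0%, those lower 2160 bases and 59.4%, and all tested genes 1400 bases and 53.2%. Across 13812 genes, which share their libraries and are not independent replicates, Spearman's rho of the fold change was -0.23 with length and -0.36 with GC content. With both trends removed from each library 0 genes passed in limma and 2332 had an unadjusted p under 0.05. Of the 65 genes 64 then kept their direction, 62 had an unadjusted p under 0.05, and the median ratio to the fold change with the trends in place was 0.78.

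Genes of myelin, the sheath that oligodendrocytes wrap around axons, stood higher in the null on average but none passed. Of 35 listed genes of mature oligodendrocytes 32 were above 0 (against 53.0% of all tested genes), with a median of 0.25, and 13 had an unadjusted p under 0.05 (against 22.6%). Mbp, myelin basic protein, stood at 657, 793, 641 and 479 RPKM in the null, at 606, 678, 605 and 479 in the heterozygous and at 556, 577, 469 and 476 in the wild type (0.29 ± 0.14, adjusted p = 0.244). Null replicate 4 lay within the wild-type range. Trf, the iron carrier transferrin that oligodendrocytes make in the brain, had groups that did not overlap, at 45.5 to 60.5 RPKM against 37.0 to 44.7 (0.47 ± 0.13, adjusted p = 0.0749). The list's median was 0.14 against the wild-type libraries with number 13, 0.42 against those with 15, and -0.22 with the title number as a term. Genes of oligodendrocyte precursors had a median of -0.05, with none called among 14.

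Microglia are the brain cells in which the microRNA is normally made. Homeostatic microglia genes had a median of 0.00 with 8 of 19 above 0, and none passed. The median was 0.18 with the title number as a term and -0.11 without the 5 libraries high in olfactory genes. In 2 of the 19 genes every null library lay above every wild-type library (against 6.43% of all tested genes), in 2 every one lay below (against 6.69%), and the others overlapped. Cx3cr1, the fractalkine receptor, and Tmem119 were among those that overlapped. Cx3cr1 stood at 54.5 to 61.6 RPKM in the null and 53.7 to 62.9 in the wild type, and Tmem119 at 21.6 to 26.3 against 19.8 to 25.4. The summed level of the list was 487 to 555 RPKM in the null and 505 to 548 in the wild type.

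In this list Tgfbr1 and Fcrls came closest to the threshold, on opposite sides of 0, and they were singled out after their values were seen. Tgfbr1, a receptor for transforming growth factor beta that is also a published target of miR-142-3p, stood at 49.3, 43.9, 46.7 and 50.3 RPKM in the null, at 38.9, 35.4, 38.2 and 43.6 in the heterozygous and at 38.4, 39.9, 34.5 and 37.2 in the wild type. Every null library was above every other library. Its log2 fold change was 0.34 ± 0.07 (SE, adjusted p = 0.0504), and with the title number as a term it was 0.49 (unadjusted p = 0.00111). Its 3' UTR holds a miR-142a-3p 8mer on the plus strand at chr4:47414863-47414892 of GRCm38, shown in capitals.

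Tgfbr1 site: atttcatcctaACACTACAgtagaaaatgg

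Fcrls, a surface molecule of microglia, stood at 11.2, 9.37, 11.4 and 13.5 RPKM in the null, at 14.4, 14, 13.9 and 14.2 in the heterozygous and at 14.4, 14.8, 18.4 and 17.4 in the wild type. Every null library was below every other library, and its fold change was -0.50 ± 0.10 (adjusted p = 0.0504) and -0.35 with the title number as a term (unadjusted p = 0.0829). Trem2, a lipid receptor of microglia, stood at 7.74 to 11 RPKM against 10.6 to 12.7 (-0.35 ± 0.10, adjusted p = 0.0753), and Gpr34 at 15.4 to 21.9 against 14.1 to 15.2 (0.31 ± 0.09, adjusted p = 0.0803). The complement gene C1qa stood at 45.6 to 54.7 RPKM in the null and at 54.7 to 67.2 in the wild type (-0.27 ± 0.08, adjusted p = 0.0711). None of 21 disease-associated microglia genes and none of 16 complement and antigen presentation genes passed.

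Among 16 interferon response genes 1 passed, higher in the null (against 0.209% of all tested genes). Ifi27 stood at 16.3, 16.1, 16.6 and 16.0 RPKM in the null, at 13.8, 13.4, 15.2 and 14.3 in the heterozygous and at 11.8, 13.9, 10.9 and 12.8 in the wild type, and rose by 0.39 (SE 0.08). Rsad2, the antiviral enzyme viperin, stood at 5.03, 4.62, 6.09 and 6.71 RPKM in the null and at 2.38 to 3.23 in the wild type (0.81 ± 0.18, adjusted p = 0.0521). In both genes every null library was above every heterozygous library too. The list as a whole had a median of 0.09, which was 0.34 with the title number as a term and -0.06 without the 5 libraries high in olfactory genes.

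Markers of border macrophages and blood leukocytes were mostly low, and none of 14 passed. Of these 9 stood above 0 and 5 below, with a median of 0.11, or -0.08 without the 5 libraries high in olfactory genes. Coro1a, at 42.2 to 49.4 RPKM against 45.3 to 48.9 (0.00), and Cd52 (0.21) overlapped between groups. In 2 of 14, picked after their values were seen, null libraries lay above all wild-type libraries (against 6.43% of all tested genes). These were the neutrophil genes S100a8, at 5.30 to 10.2 RPKM against 1.84 to 4.87 (1.01 ± 0.49, adjusted p = 0.246), and Ngp, at 1.14 to 1.99 against 0.151 to 0.903 (0.94 ± 0.27, adjusted p = 0.0763). All 4 tested genes of red cells and platelets stood above 0 with a median of 0.73, and none passed. Alas2, the haem synthesis enzyme of red cell precursors, overlapped at 8.12 to 13.7 RPKM in the null and 3.31 to 11.8 in the wild type (0.76 ± 0.40, adjusted p = 0.29). The summed level of these 4 genes was 13.4 to 20 RPKM against 4.53 to 15.9.

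A pair of called genes at low levels separated the null from all other libraries, and they too were picked after their values were seen. Cd209a, a lectin of dendritic cells and some macrophages, stood at 0.168, 0.0533, 0.0509 and 0.198 RPKM in the null, at 0.837, 0.545, 0.510 and 0.496 in the heterozygous and at 0.691, 0.739, 0.369 and 0.728 in the wild type. These levels rest on 3, 1, 1 and 4 reads in the null and on 6 to 19 in the other libraries, so counting error is large, and Cd209a has close relatives among which reads could be split. It fell by 0.87 (SE 0.17), and the fold change with the title number as a term was -1.16 (unadjusted p = 0.00474). Dusp27, a phosphatase-like gene known from muscle, stood at 0.584, 0.847, 0.862 and 0.880 RPKM in the null, at 0.361 to 0.424 in the heterozygous and at 0.203 to 0.376 in the wild type, from 50 to 85 reads in the null and 16 to 34 in the wild type. Only its null libraries reached 0.5 RPKM, so the gene passed the filter solely through the group where it was high. It rose by 0.75 (SE 0.14) and stood at 0.64 with the title number as a term (unadjusted p = 0.0322). In all, 10 of 29 called higher genes lay above all 8 heterozygous and wild-type libraries (0.584% of tested genes did so) and 10 of 36 called lower genes lay below them (0.533%). Besides Cd209a and Dusp27 these included Cox7b, Dnajc19, Eif3h, Evi2a, Ifi27 and Pigx on the higher side and Agap2, Efnb1, Lef1 and Wwtr1 on the lower side. All called genes already lay clear of the wild type, so the shares over all tested genes are not a like base. Of the 892 tested genes above all wild-type libraries, 81 lay above all 8 libraries. On the lower side it was 74 of 928. The calls were made on the same libraries, so no enrichment is read from these counts.

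Published targets of miR-142-3p did not rise as a group. None of 42 tested genes passed, 25 stood above 0, the median was 0.03 against 0.01 over all tested genes, and 5 of 42 had null libraries above all wild-type libraries (6.43% of all genes did). Besides Tgfbr1 these were Itgav, Rab2a, Stam and Cul4b. Rab2a, a GTPase of the secretory pathway, stood at 425 to 440 RPKM in the null and 356 to 420 in the wild type (0.19 ± 0.05, adjusted p = 0.0682). Itgav, an integrin subunit, stood at 72.1 to 74.1 RPKM against 57.7 to 68.1 (0.18 ± 0.06, adjusted p = 0.0994). The targets that act on the actin cytoskeleton overlapped between groups. Rac1 stood at 439 to 496 RPKM against 431 to 459 (0.04 ± 0.05), Rock2 at 141 to 176 against 136 to 168 (0.09 ± 0.09), and Wasl at 81.1 to 94.7 against 84.5 to 98.2 (-0.03 ± 0.06). Sgms1 stood lower, at 36.7 to 38.8 RPKM against 43.6 to 49.8 (-0.32 ± 0.07, adjusted p = 0.0504). The list was drawn from knowledge of work on other cells, and most of its members are broadly expressed.

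The sites of 3 of these genes are shown on GRCm38 with the 8mer in capitals. They let the reader compare a target that stood higher, Itgav at chr2:83803768-83803797 (plus strand), with ones that did not, Rac1 at chr5:143506235-143506264 (minus strand) and Rock2 at chr12:16984895-16984924 (plus strand).

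Itgav site: aggtacacattACACTACAgttgacttcat
Rac1 site: gagattactttACACTACAttgtacatgga
Rock2 site: gtcataaagtcACACTACAttgcacaggac

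The search was then widened to all annotated 3' UTRs. An 8mer ACACTACA, on the transcript's strand, was present in 440 of 13775 tested genes with a 3' UTR (3.19%), and their median log2 fold change was 0.01 with quartiles of -0.10 and 0.12, against 0.01, -0.11 and 0.12 over all 13775. Of the 440 genes 1 was called higher and 2 lower, against 27 higher and 36 lower of the 13775. The miR-142a-5p 8mer ACTTTATA was in 729 genes (5.29%) with a median of 0.03, and 2 were called higher and 1 lower. Genes with the 8mer of miR-9-5p or let-7a-5p, which the null keeps, had medians of -0.01 in both cases. Genes with sites have long 3' UTRs, with a median of 2550 bases for miR-142a-3p against 1240 over all genes, and among the 4588 genes with the longest 3' UTRs the median was 0.00, against 0.01 for the 275 of them with the site.

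**Figure D4:**
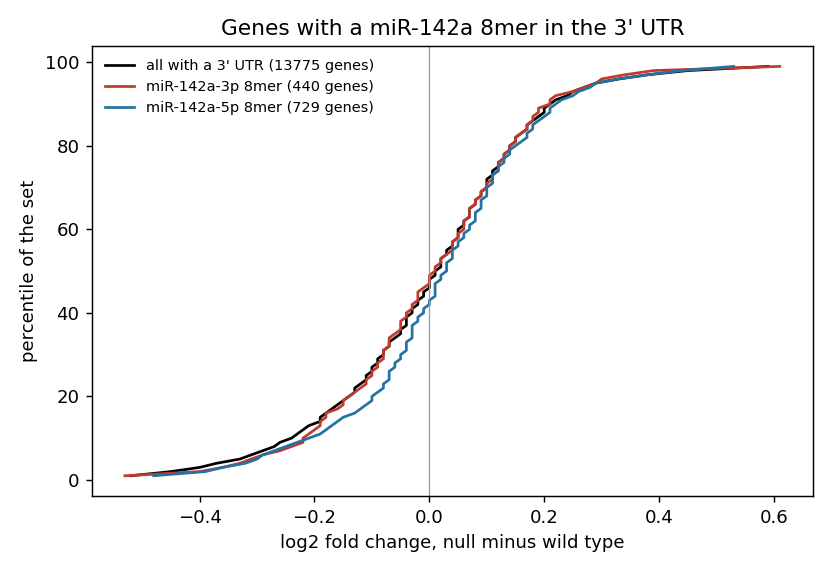
Percentile (vertical axis) of the log2 fold change, null minus wild type (horizontal axis), for all 13775 tested genes with a 3' UTR and for those with an 8mer of miR-142a-3p (440 genes) or miR-142a-5p (729 genes). The medians of the 3 curves were 0.01, 0.01 and 0.03.

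The called genes with a miR-142a-3p 8mer were Nap1l5, Neurl1a and Smarca2. Nap1l5, an imprinted gene of neurons, was the one that rose (0.27 ± 0.05), from 445 to 515 RPKM in the wild type to 550 to 598 in the null. Its site lies at chr6:58906144-58906173 (minus strand). The called genes with a miR-142a-5p 8mer were B3galt2 and Elavl2, both higher, and Epas1, lower. The 3' UTR of B3galt2 holds a pair of such sites, and the first lies at chr1:143649584-143649613 (plus strand). These sites are shown, with the 8mer in capitals, because both genes were called higher in the null.

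Nap1l5 site: atccattcatcACACTACAccagaacatcc
B3galt2 site: tataaatgctaACTTTATAagctgctatat

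A site in the sequence is a description and does not show that either gene is bound in these tissues. With the title number as a term the fold change was 0.12 for Nap1l5 and 0.28 for B3galt2, and the heterozygous libraries held Nap1l5 at 540, 559, 541 and 516 RPKM.

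The neighbours of Mir142 were examined next. Of 39 tested genes within 2 Mb of the hairpin none passed, 28 stood above 0, and the median was 0.07. Bzrap1 (Tspoap1 in RefSeq), which encodes a protein of the presynaptic active zone and lies 1 kb from the hairpin, stood at 54.8, 59.0, 50.4 and 54.9 RPKM in the null and at 68.9, 71.5, 69.9 and 66.7 in the wild type (-0.34 ± 0.10, unadjusted p = 0.0042). The groups did not overlap. The heterozygous libraries stood at 52.3, 58.4 and 54.6 RPKM with number 14, as low as the null, and at 77.9 with number 13, and the fold change with the title number as a term was 0.14. Supt4a, a transcription elongation factor on the other side, stood at 64.3 to 69.9 RPKM against 56.1 to 62.1 (0.19 ± 0.05, unadjusted p = 0.00226). Distances here run between the lower coordinates of gene and hairpin, 19 kb for Supt4a, whose nearer end is closer.

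**Figure D5:**
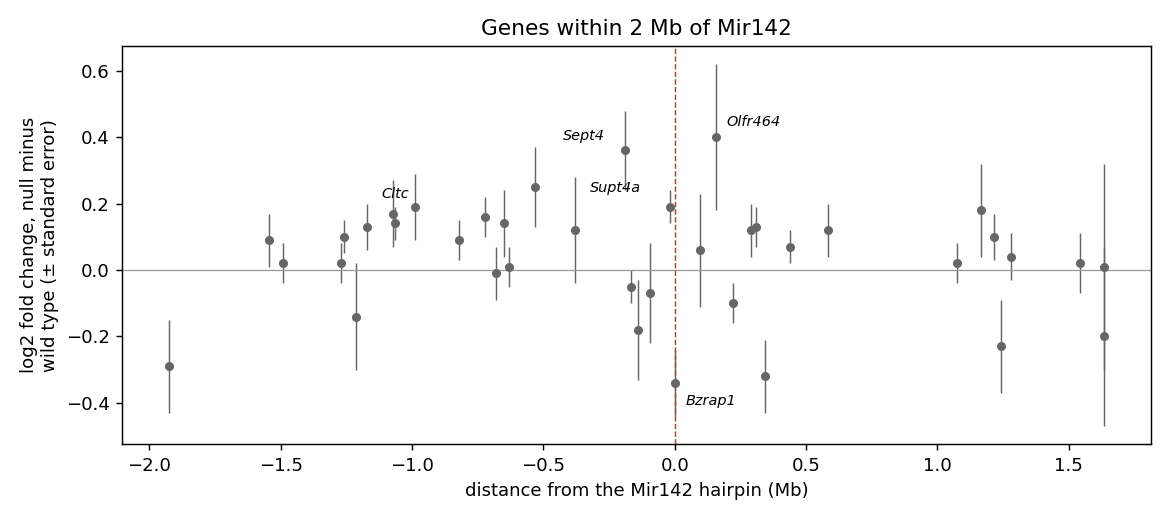
Log2 fold change with its standard error (vertical axis) of the 39 tested genes within 2 Mb of Mir142 by distance from the hairpin (horizontal axis, Mb), whose place is the dashed line. Distances run between the lower coordinates of gene and hairpin. Bzrap1, next to the line, stood at -0.34, and none of the 39 genes passed the test.

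The rTg4510 frontal cortex of the same study had 3 libraries of mice that carry a mutant human tau transgene and 3 that do not. Their titles carry 8mo, for 8 months, whereas the prefrontal cortex labels give no age. The comparison of these rTg4510 groups gave 1037 calls of 13972 genes tested (7.42%), 806 higher (5.77%) and 231 lower (1.65%), or 433 and 325 with quantile scaling. Those groups differed in more than the transgene: Ddx3y stood at 0.11 to 0.118 RPKM in the transgenic and 46.8 to 54.5 in the other libraries, and Th, one of the olfactory bulb genes above, at 5.75, 84.7 and 66.4 against 0.648, 2.45 and 0.378. Of 64 genes called between null and wild type and tested there, 8 were called as well (12.5%), which is 0.803% of the 996 rTg4510 calls tested in both. Crtc1, Cux2 and Evc2 were lower and Dusp27 and Ifi27 higher in both, whereas Hmox1, Lef1 and Wwtr1 were lower in the null and higher with the transgene. Dusp27 passed the filter of each comparison only through the null or the transgenic libraries, so nothing is read from its shared direction. Ifi27 stood at 24.4, 35.1 and 28.6 RPKM with the transgene and at 19, 14 and 14.9 without it, and Hmox1 at 15.1, 11.7 and 13.5 against 6.31, 4.52 and 4.51. The microglia lists differed between the 2 comparisons in size. Disease-associated microglia genes had a median of 1.45 with 21 of 24 called higher in the rTg4510 table and a median of 0.09 with none called between null and wild type. The difference between the tables was not tested, since they were normalized separately.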

How the data were processed

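The deposited values were RPKM in 1 table of 12 prefrontal cortex libraries and 1 of 6 rTg4510 libraries, made by the authors, per the submitters' processing notes, with STAR on mm10 and HTSeq (versions not given in the sources used here). The libraries kept strand (TruSeq Stranded), lost ribosomal RNA (RiboZero Gold) and gave 75 bp paired reads, per the labels' protocols. Reads recovered from the steps of the RPKM were whole within 0.005 for all 17506 genes above 0, and 93.8% of the lengths were multiples of 3 (coding lengths). Groups came from the labels.

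All 12 libraries were fitted with limma 3.58.1 (R 4.3.3), trend and robust, on the log2(RPKM + 0.5) scale, and Benjamini-Hochberg adjustment over all genes tested. Errors are standard errors. The design table stated that the title number cannot be fitted, which is so only without the heterozygous libraries. Positions came from RefSeq (GRCm38.p6), with 20565 of 20661 genes matched, and UTRs and coding GC content from GENCODE vM21. The steps were tested on simulated data. Members and lists were chosen with earlier results of these data known. Named genes were the 14 highest and 14 lowest fold changes among called genes with a mean of at least 2 RPKM, leaving out predicted and sex-linked genes, the 8 smallest p-values, up to 4 called members of each list or else its 2 highest, called genes within 2 Mb of Mir142, and the sex-linked list. Others are given as list members, were taken from the calls for a trait given with them, or are said to be picked afterwards. The ribosome pulldown table, the microRNA-124 site search and the lists without a result above were not analysed or are not reported here. Summaries used pandas 2.3.3 in Python 3.11.15.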

Additional observations from a re-analysis of the deposited data

Results flagged for a closer look

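In each group of 4 libraries the highest or lowest value was compared with the others, and 11 of 189 such groups had a gap above Dixon's 95% critical value, where chance gives about 1 in 20. Among the named genes, Flt1 was highest in null replicate 2 at 10.5 RPKM, Elavl2 in wild-type replicate 2 at 68.5, Mtss1l in heterozygous replicate 4 at 30 (its title number is 13) and Nxph2 in heterozygous replicate 1 at 4.02. Nxph2 was lowest in wild-type replicate 3 at 1.63 RPKM. Among the summed lists, endothelial genes were lowest among the wild type in replicate 2 at 462 RPKM, and reactive astrocyte genes lowest among the null in replicate 2 at 105. Wild-type replicate 4, one of the libraries high in olfactory bulb genes, was lowest in astrocyte genes at 4600 RPKM, highest in oligodendrocyte precursor genes at 258 and highest in thalamic, septal, hypothalamic and olfactory neuron genes at 699. Heterozygous replicate 3, also high in olfactory bulb genes, was highest in the last list at 687 RPKM.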

How the results depend on the processing

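The number of called genes depended on most settings. Against 65 in all (29 higher, 36 lower), 166 (78 and 88) passed with a filter of 2 RPKM, 1297 (681 and 616) with library weights, 219 (80 and 139) with the null and wild-type libraries alone, 922 (389 and 533) with M libraries alone and 1289 (586 and 703) against wild-type number 15 alone. With the letter as a term 41 passed (19 lower), with voom on recovered reads 33 (8 higher), without limma's trend and robust options 6 (1 and 5), with no filter 2 (2 and 0), and with quantile scaling 55 were lower. In limma 0 passed with median-of-ratios scaling, a pseudocount of 1, length trends, length and GC trends, the olfactory term, the 5 olfactory-high libraries left out, the title number, or wild-type number 13 alone. In all, 12 of 27 settings gave 0, with 243 to 3139 genes at an unadjusted p under 0.05. Leaving out 1 library gave 0 to 662 calls, 0 to 336 higher and 0 to 383 lower. The rTg4510 calls ran from 264 to 2323, 219 to 1591 higher and 44 to 732 lower, and quantile scaling gave 433 higher.

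The 34 named called genes kept their sign in 916 of 917 fits and their call in 338. Shank1 turned to 0.02 with the title number. These genes were called with no overlap between null and wild type. Fits that only left out libraries or changed the filter or pseudocount therefore had to keep the sign. The count does not show that directions are steady. List medians moved beyond the spread between libraries in 42 of 783 fits, besides the 6 sign changes of larger medians given next. Among the 42 were, with the title number, endothelial -0.18, synapse -0.04, oxidative phosphorylation 0.02 and homeostatic microglia 0.18, and, without the 5 libraries, endothelial -0.27, synapse -0.02 and homeostatic microglia -0.11. Of medians larger than that spread, those that changed sign were myelin -0.22, astrocyte 0.04, pericyte 0.03 and circadian 0.03 (title number), interferon -0.06 (without the 5 libraries) and cholesterol synthesis -0.00 (wild-type number 13 alone). Smaller medians changed sign too, among them immediate early 0.31 (title number) and meninges -0.41 (wild-type number 13 alone), thalamic and olfactory -0.32, forebrain excitatory 0.15, ribosomal -0.03 and disease-associated microglia -0.07 (without the 5 libraries), and heat shock 0.25 (wild-type number 13 alone). With the title number the complement median was 0.50 and the interferon median 0.34. The cause of these shifts was not tested. The title number, length and GC, and olfactory settings and the split of wild type by number were chosen after seeing the data. No paired analysis was possible because the replicate numbers are only the order of the samples. Depth limits low genes, and Cd209a rests on 1 to 4 reads in each null library.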

Other observations

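Further gene groups gave values that the comparison above does not use. All 14 astrocyte genes stood below 0, with a median log2 fold change of -0.10 and none called, and their summed level was 4360 to 4460 RPKM in the null and 4600 to 5050 in the wild type. Interneuron genes stood above 0 in 16 of 18, with a median of 0.28 that became 0.05 with the olfactory genes as a term. Immediate early genes, which neurons switch on with activity, had a median of -0.33 with none of 18 called, and the median was 0.12 against wild-type number 13 and -0.55 against number 15. Circadian clock genes had a median of -0.18 with none of 19 called. Cholesterol synthesis genes had a median of 0.04 with none of 22 called, actin and small GTPase genes 0.02 with none of 33, and heat shock genes -0.03 with none of 21. Markers of meninges and fibroblasts had a median of 0.08 with none of 14 called, and it was -0.41 against wild-type number 13 and 0.53 against number 15.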
